A study of Mus musculus with 12 samples.

Results

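Pancreatic cancer cells without p53 (fl-CCs) were compared with the same cells after transfection with human mutant p53 R175H. The comparison used the 6 arrays whose titles name these groups, 3 of each, out of 12 arrays in the series, and it was read across 18193 genes. The fl-CCs are a primary tumor line from a KPflC mouse, in which Pdx1-Cre acts in the pancreatic lineage to delete a floxed Trp53 allele, and the labels call them p53 null. The p53 R175H cells are fl-CCs that carry the human protein, whose R175H change is the human counterpart of the p53 mutation used in mouse models of this tumor. The 3 arrays of fl-CCs + EV (empty vector) are set beside them as the control for transfection. All lines grew in the same serum-containing medium to the same confluency, but the drug G418 was added to EV and p53 R175H cells and not to fl-CCs. Transfection, G418 and mutant p53 therefore cannot be told apart in this comparison taken alone. Each group is a single line, and whether it was a clone or a pool is not given in the sources used here. The replicates were cultures of these lines, and the tests thus reflect the variation from culture to culture and not from one independently made line to another.

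p53 is a transcription factor that stops the cell cycle or starts cell death after damage, and R175H is a common mutation of its DNA-binding domain that disturbs the fold of that domain. Mutant p53 proteins of this kind cannot bind most normal p53 target sites, yet they accumulate in tumor cells and can act through other transcription factors, among them NFκB, SREBP2, NRF2 and SMAD proteins. In pancreatic cancer, mutant p53 is associated with invasion and metastasis, whereas loss of p53 alone gives tumors that spread less.

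Each array gives 1 log2 value per probe set, normalized by the authors with RMA, and a difference of 1 on this scale is a doubling. Differences are p53 R175H minus fl-CCs with their standard error (SE), and a gene was called at an adjusted p of 0.05 or less. The values of a gene are those of its probe set with the lowest adjusted p in this comparison, unless another probe set is named. Log2 values under 5 count as near background, and if a gene was that dim on all 3 arrays of a group, its difference is given as "at least" the other group's mean minus 5. The introduced human transcript and mouse Trp53 were not analysed here.

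The arrays within each group correlated at r = 0.994 to 0.996, and p53 R175H arrays correlated with fl-CCs arrays at 0.986 to 0.990. The 3' minus 5' log2 signal of the Gapdh control probe sets, a sign of RNA integrity, was 0.99 to 1.10 in p53 R175H arrays, 0.61 to 0.88 in fl-CCs and 0.69 to 0.77 in EV cells. That of Actb was 0.18 to 0.23, 0.12 to 0.17 and 0.10 to 0.15 in the same order. The part of this shift in the results was not tested. Replicate 1 of fl-CCs had the lowest weight of the 6 arrays when arrays were weighted by their fit, at 0.556. The cells had the markers of pancreatic duct cells and tumors. The log2 value of Krt19, a duct keratin, was 13.61 to 13.72 in fl-CCs and 13.23 to 13.24 in p53 R175H cells, and that of Cdh1, which encodes E-cadherin, was 12.21 to 12.28 and 12.41 to 12.58. Ptprc, which marks leukocytes, Dcn, which marks fibroblasts, and the endothelial marker Pecam1 were under 5 in all of these arrays.

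The lines also differed in Y-linked transcripts. Kdm5d, a histone demethylase gene of the Y chromosome, measured 7.83, 8.60 and 8.38 in fl-CCs, 5.60, 6.0 and 4.96 in EV cells and 10.21, 10.00 and 9.95 in p53 R175H cells. The log2 level was thus highest in p53 R175H cells and lowest in EV cells, with no overlap between any pair of groups. Of further Y-linked genes, Uty was at least 1.37 higher in p53 R175H cells than in fl-CCs, and Eif2s3y rose by 1.76 ± 0.13 on its brighter probe set. The summed log2 level of the 4 sex-linked transcripts measured ran from 8.11 to 8.81 in fl-CCs, 5.93 to 6.54 in EV and 10.21 to 10.44 in p53 R175H cells. In a culture measured in bulk, fewer cells that make a transcript and less transcript per cell cannot be told apart.

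Across all genes, 2277 of 18193 (12.5%) rose in p53 R175H cells against fl-CCs and 2094 (11.5%) fell. Of these 4371 genes, 4346 had arrays of the 2 groups that did not overlap. Many differences were small, with 1794 of them (41.0%) under 0.5 on the log2 scale. A log2 difference of at least 1 was passed by 424 rises and 239 falls. The median difference over all genes was −0.02. In 209 of the called genes both groups were near background (138 on every probe set of the gene), and no difference is given for such genes. The plot of group means shows the rises and falls around the line of equal levels.

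**Figure D1:**
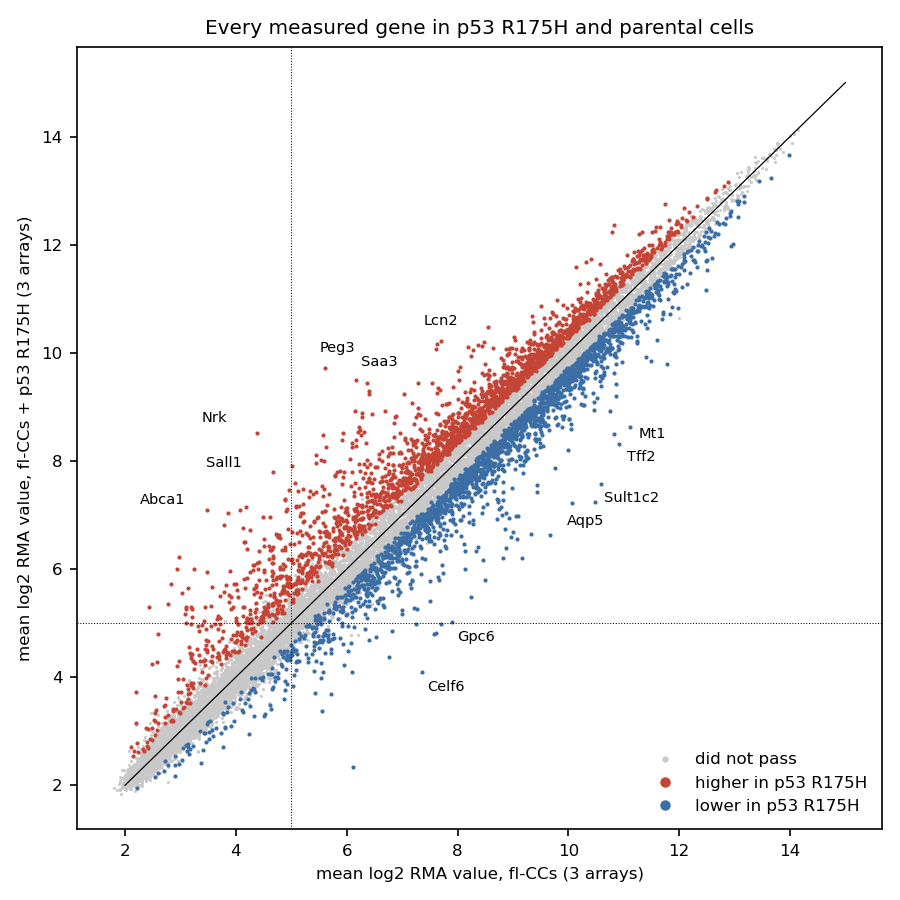
Mean log2 RMA value of each gene in fl-CCs (horizontal axis) and in fl-CCs + p53 R175H (vertical axis), 3 arrays each; red points rose and blue points fell (adjusted p of 0.05 or less), grey points did not pass, the solid line marks equal levels and the dotted lines a log2 value of 5. Peg3 and Nrk stand far above the line, and Sult1c2, Gpc6 and Mt1 far below it.

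The EV cells show which of these differences transfected cells without mutant p53 also had. Against EV, 2451 genes (13.5%) were higher and 2359 (13.0%) lower in p53 R175H cells, and between EV and fl-CCs 1509 genes (8.29%) were higher and 1306 (7.18%) lower in EV. These comparisons share arrays with the one against fl-CCs, so their values are given side by side and not as separate evidence. Each gene was read from the probe set picked for p53 R175H against fl-CCs, which favors calls there more than in the comparisons with EV. Over probe sets, 3499 were higher and 3263 lower in p53 R175H cells than in fl-CCs. The counts were 4586 and 4577 against EV, and 2905 and 2547 for EV against fl-CCs.

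The metallothionein genes Mt1 and Mt2, the zinc exporter gene Slc30a1 and several genes that ATF4 is known to induce were among the genes that fell, and 5 of their promoters are shown because each gene fell and each promoter holds the element bound by the factor known to induce it. Metal response elements, bound by the zinc sensor MTF1, were searched as TGCACNC and TGCGCNC. ATF4 elements, bound by the main transcription factor of the integrated stress response, were searched as TGATGNAA. Both strands were searched, no matches overlapped, and matches stand in capitals. Each window runs from 250 bases before to 50 bases after the gene start (RefSeq, GRCm38.p6), and all are written 5′ to 3′ on the gene's strand. They are Mt1 (chr8:94178839-94179138, plus strand), Mt2 (chr8:94172368-94172667, plus), Slc30a1 (chr1:191906531-191906830, plus), Slc7a11 (chr3:50443564-50443863, minus) and Trib3 (chr2:152344011-152344310, minus).
Mt1: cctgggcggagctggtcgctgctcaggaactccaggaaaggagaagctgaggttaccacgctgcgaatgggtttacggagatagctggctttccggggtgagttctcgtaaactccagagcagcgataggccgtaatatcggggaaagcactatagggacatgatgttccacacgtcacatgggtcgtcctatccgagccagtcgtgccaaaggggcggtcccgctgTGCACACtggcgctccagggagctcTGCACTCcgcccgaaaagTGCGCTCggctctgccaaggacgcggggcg
Mt2: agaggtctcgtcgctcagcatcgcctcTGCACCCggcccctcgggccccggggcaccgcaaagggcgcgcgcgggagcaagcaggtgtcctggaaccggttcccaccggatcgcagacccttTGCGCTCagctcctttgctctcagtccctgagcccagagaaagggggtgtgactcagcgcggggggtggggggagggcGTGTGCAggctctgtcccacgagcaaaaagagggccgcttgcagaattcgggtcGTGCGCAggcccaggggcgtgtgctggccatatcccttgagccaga
Slc30a1: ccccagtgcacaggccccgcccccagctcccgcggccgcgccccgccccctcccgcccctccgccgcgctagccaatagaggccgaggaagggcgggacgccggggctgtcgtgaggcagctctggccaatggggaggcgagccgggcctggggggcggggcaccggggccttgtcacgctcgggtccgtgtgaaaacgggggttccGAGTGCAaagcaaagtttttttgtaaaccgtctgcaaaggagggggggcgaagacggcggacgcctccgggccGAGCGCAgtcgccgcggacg
Slc7a11: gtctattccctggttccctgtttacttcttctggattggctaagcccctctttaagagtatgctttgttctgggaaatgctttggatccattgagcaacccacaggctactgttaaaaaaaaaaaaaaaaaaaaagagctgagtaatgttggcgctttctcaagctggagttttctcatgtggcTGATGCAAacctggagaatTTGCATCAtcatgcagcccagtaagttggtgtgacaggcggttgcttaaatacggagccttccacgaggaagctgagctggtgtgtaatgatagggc
Trib3: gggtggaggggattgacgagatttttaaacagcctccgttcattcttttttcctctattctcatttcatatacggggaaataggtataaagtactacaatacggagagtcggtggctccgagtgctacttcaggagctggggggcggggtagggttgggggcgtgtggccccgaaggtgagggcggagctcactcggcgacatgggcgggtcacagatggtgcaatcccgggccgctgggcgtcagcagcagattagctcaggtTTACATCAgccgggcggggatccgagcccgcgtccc

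Mt1 holds 3 metal response matches, Mt2 holds 4 and Slc30a1 holds 2. At least 1 such match was present in 25.7% of 32851 promoter windows of the same length, at least 2 in 7.11%, at least 3 in 1.97% and at least 4 in 0.517%. Slc7a11 holds 2 ATF4 matches and Trib3 holds 1. An ATF4 match was present in 3.97% of all windows and at least 2 in 0.07%. Asns and Chac1 also hold 1 each, the window of Stc2 holds none, and that of Aldh1l2 was not used here. A match is a description of the sequence and not a measurement of binding.

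Metallothionein genes encode small proteins that bind zinc and copper. Mt1 measured 10.90, 11.49 and 10.97 in fl-CCs and 8.92, 8.53 and 8.42 in p53 R175H cells, a log2 difference of −2.49 ± 0.16 or 5.64-fold lower (adjusted p = 2.24e-06). EV cells, at 10.82 to 11.03, overlapped fl-CCs and not p53 R175H cells. Mt2 fell by 2.33 ± 0.16 on the log2 scale (adjusted p = 4.51e-06), from 10.50 to 11.30 in fl-CCs to 8.41 to 8.55, and was 9.96 to 10.20 in EV cells. Slc30a1, the zinc exporter of the plasma membrane, fell by 1.85 ± 0.11 (adjusted p = 1.25e-06), from 8.74 to 8.98 down to 6.82 to 7.15. Mt3, whose window holds 1 metal match, fell by 0.56 ± 0.11 (adjusted p = 0.00469). Tfrc, the receptor for transferrin-bound iron, fell by 1.36 ± 0.08, to 10.18 to 10.27, while EV cells (11.47 to 11.54) overlapped fl-CCs (11.54 to 11.66). Of 38 drug efflux and metal-binding genes measured, 3 rose (7.9%, beside 12.5% of all genes) and 11 fell (28.9%, beside 11.5%). Their median log2 difference was −0.15.

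Of 54 unfolded protein and integrated stress response genes, 22 fell (40.7%, beside 11.5% of all genes) and 8 rose (14.8%, beside 12.5%). Their median was −0.26. Members that fell include single genes that ATF4 is known to induce, and Trib3 and Asns among them were picked after their values were seen. The stanniocalcin gene Stc2, a secreted stress response glycoprotein, measured 9.49, 9.23 and 9.29 in fl-CCs and 6.02, 7.38 and 6.54 in p53 R175H cells. This was a log2 difference of −2.69 ± 0.25 (6.45-fold lower, adjusted p = 3e-05), and EV cells lay between, at 8.22 to 8.42. Slc7a11, the cystine importer that feeds glutathione synthesis, measured 8.43, 8.79 and 8.14 in fl-CCs and 6.42, 5.97 and 6.13 in p53 R175H cells, 4.86-fold lower (adjusted p = 2.09e-05). Its log2 level in EV cells was 7.79 to 8.09, below every fl-CCs array and above every p53 R175H array, and EV did not pass the test against fl-CCs (adjusted p = 0.0995). Aldh1l2, a mitochondrial folate enzyme, fell by 2.09 ± 0.19, Trib3, a pseudokinase of this response, by 0.96 ± 0.14, and the asparagine synthetase gene Asns by 0.82 ± 0.16.

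Chaperones of the endoplasmic reticulum (ER), which the unfolded protein response induces, were found among the rises of the same list. Hyou1, an ER chaperone, measured 10.17, 10.24 and 10.21 in fl-CCs and 11.13, 10.84 and 10.86 in p53 R175H cells, a log2 difference of 0.74 ± 0.09 (adjusted p = 0.000314). The 8 rises of the list became 5 without fl-CCs replicate 3 and without each of the p53 R175H replicates 1, 2 and 3, and 4 when only these 6 arrays were fitted. Against EV, 5 were higher and 21 lower (median −0.27), and between EV and fl-CCs 8 were higher and 4 lower.

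NRF2 targets, which make glutathione and detoxify electrophiles, fell in p53 R175H cells as well. Of 45 genes, 15 fell and 4 rose (median −0.17). Gclc, the rate-limiting enzyme of glutathione synthesis, fell from 11.94 to 12.02 in fl-CCs to 10.69 to 10.90, a log2 difference of −1.15 ± 0.09 (adjusted p = 1.02e-05). The glutathione transferase Gsta3 fell by 1.42 ± 0.21, but was about as low in EV cells (5.84 to 6.34 against 5.72 to 6.20). The list also holds one of the largest rises, Gpx8, an ER peroxidase, described below. Against EV, 15 members were higher and 10 lower, and between EV and fl-CCs 3 were higher and 13 lower.

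Most genes of cholesterol synthesis fell, and the sterol pump genes Abca1 and Abcg1 rose. Of 24 cholesterol synthesis genes, 19 fell and 0 rose, against 11.5% and 12.5% of all genes, and their median log2 difference was −0.80. Stard4, which carries cholesterol between membranes, measured 9.82, 10.07 and 10.09 in fl-CCs and 8.44, 8.09 and 8.09 in p53 R175H cells, 3.45-fold lower (log2 difference −1.78 ± 0.12, adjusted p = 2.18e-06). The groups did not overlap, and EV cells, at 10.18 to 10.36, lay above both. Enzymes along the pathway moved the same way. Mvd fell by 1.36 ± 0.11, Lss, which closes the sterol rings, by 1.32 ± 0.10, Cyp51 by 1.28 ± 0.11, Sqle, a rate-limiting oxygenase, by 1.07 ± 0.10 and Hmgcs1, which acts early, by 0.81 ± 0.10. Srebf2, which encodes the transcription factor SREBP2 that drives these genes, fell by 0.91 ± 0.09 (adjusted p = 4.78e-05), and Insig1, the ER protein that retains SREBP2, fell by 0.84 ± 0.10.

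EV cells did not have this difference. Against EV, 20 of the 24 genes were lower and 0 higher (median −0.89), whereas between EV and fl-CCs 0 were lower and 1 higher (median 0.13). The 19 falls stayed 19 in each of the 6 fits that left out 1 array. Abca1, the pump that loads cholesterol onto apolipoproteins, measured 3.27, 3.49 and 3.67 in fl-CCs, 2.91, 3.65 and 3.27 in EV cells and 7.21, 7.14 and 6.95 in p53 R175H cells. It was near background in every array of both groups without p53 R175H, and was at least 2.10 higher on the log2 scale (adjusted p = 2.57e-07). Abcg1, another sterol pump, was 3.88 to 4.47 in fl-CCs and 6.58 to 6.96 in p53 R175H cells, at least 1.75 higher (adjusted p = 6.58e-06). Both pumps are known targets of the sterol-sensing LXR receptors.

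Fatty acid genes followed in part. Of 37 genes of fatty acid synthesis and storage, 13 fell and 3 rose (median −0.22). The elongase Elovl6 fell by 1.06 ± 0.09, the acetate-activating enzyme Acss2 by 0.97 ± 0.15 and the desaturase Fads2 by 0.96 ± 0.10. Cpt1a, which admits fatty acids to mitochondria for burning, rose by 0.44 ± 0.08. Fabp4, a fatty acid carrier of adipocytes and macrophages, rose from 5.70 to 6.37 in fl-CCs to 7.47 to 8.27 (log2 difference 1.7 ± 0.23). EV arrays were under 5 on this probe set and 4.73 to 5.35 on another that also rose. It was the sole riser among 6 adipocyte markers, whose summed log2 level was 8.12 to 8.35 in fl-CCs and 8.75 to 9.15 in p53 R175H cells.

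Glycolysis and hypoxia response genes, which hypoxia-inducible factors switch on, fell in p53 R175H cells. Of 43 genes, 30 fell and 2 rose, and the median log2 difference was −0.56. Aldoc, a glycolytic aldolase, measured 8.40, 9.22 and 9.15 in fl-CCs and 7.33, 6.69 and 6.79 in p53 R175H cells, a difference of −1.99 ± 0.21 (adjusted p = 8.61e-05). EV cells were above both groups at 9.71 to 10.00. The oxygen-sensing hydroxylase Egln3 fell by 1.66 ± 0.15, the lactate exporter Slc16a3 by 1.31 ± 0.17 and the glucose transporter Slc2a1 by 0.56 ± 0.10. In each of these, p53 R175H arrays were below every fl-CCs and every EV array. Car9, the carbonic anhydrase used as a hypoxia marker, fell by 1.96 ± 0.16 but was as low in EV cells (6.21 to 6.32) as in p53 R175H cells (6.31 to 6.57). Angptl4, a lipase inhibitor also induced by fatty acid sensors, rose by 0.68 ± 0.13. Against EV, 30 members were lower and 1 higher (median −0.62), and between EV and fl-CCs 12 were higher and 1 lower (median 0.21). Of 51 respiratory chain genes, 8 fell (15.7%, beside 11.5% of all genes) and 0 rose (median −0.11), and 5 fell without p53 R175H replicate 1.

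Genes of cell division were lower in both p53 R175H and EV cells than in fl-CCs, and the median of the mitosis list was lowest in EV. Of 58 mitosis and G2/M genes, 42 fell in p53 R175H cells and 0 rose (median −0.64). Between EV and fl-CCs 45 fell and 1 rose (median −0.78), and against EV 15 were higher and 2 lower in p53 R175H cells (median 0.13). The other 41 were not called against EV. Mki67, which encodes the proliferation marker Ki-67, measured 12.57, 12.24 and 12.21 in fl-CCs, 11.54, 11.56 and 11.48 in EV and 11.94, 11.93 and 11.80 in p53 R175H cells. The 3 groups did not overlap and p53 R175H cells stood in the middle, at −0.45 ± 0.10 from fl-CCs (adjusted p = 0.0106). Hmmr, a spindle and hyaluronan-binding protein, fell most of the list, by 1.22 ± 0.14, and was lower than in EV as well (by 0.52, adjusted p = 0.0213). Cdc20, the activator of the anaphase-promoting complex, fell by 0.98 ± 0.14 to the level of EV cells (8.52 to 8.76 against 8.72 to 8.79). Replicate 1 of fl-CCs was the highest of its group for each of these genes, and without it 33 genes of the list fell. Across the 6 fits that left out 1 array, 31 to 43 fell.

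Among 51 DNA replication and S phase genes, 9 fell (17.6%, beside 11.5% of all genes) and 0 rose (median −0.33), and 3 fell without p53 R175H replicate 1. Between EV and fl-CCs 18 fell and 0 rose (median −0.49). Tk1, the thymidine kinase of S phase, measured 10.07, 9.27 and 9.24 in fl-CCs and 8.36, 8.55 and 8.52 in p53 R175H cells (log2 difference −1.05 ± 0.18, adjusted p = 0.00235), with replicate 1 of fl-CCs again the highest array. Uhrf1, which maintains DNA methylation after replication, fell by 0.82 ± 0.19 and was at the same level in EV cells (log2 difference from EV 0.03 ± 0.19).

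The plot of list shares and medians sets these groups beside the other lists.

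**Figure D2:**
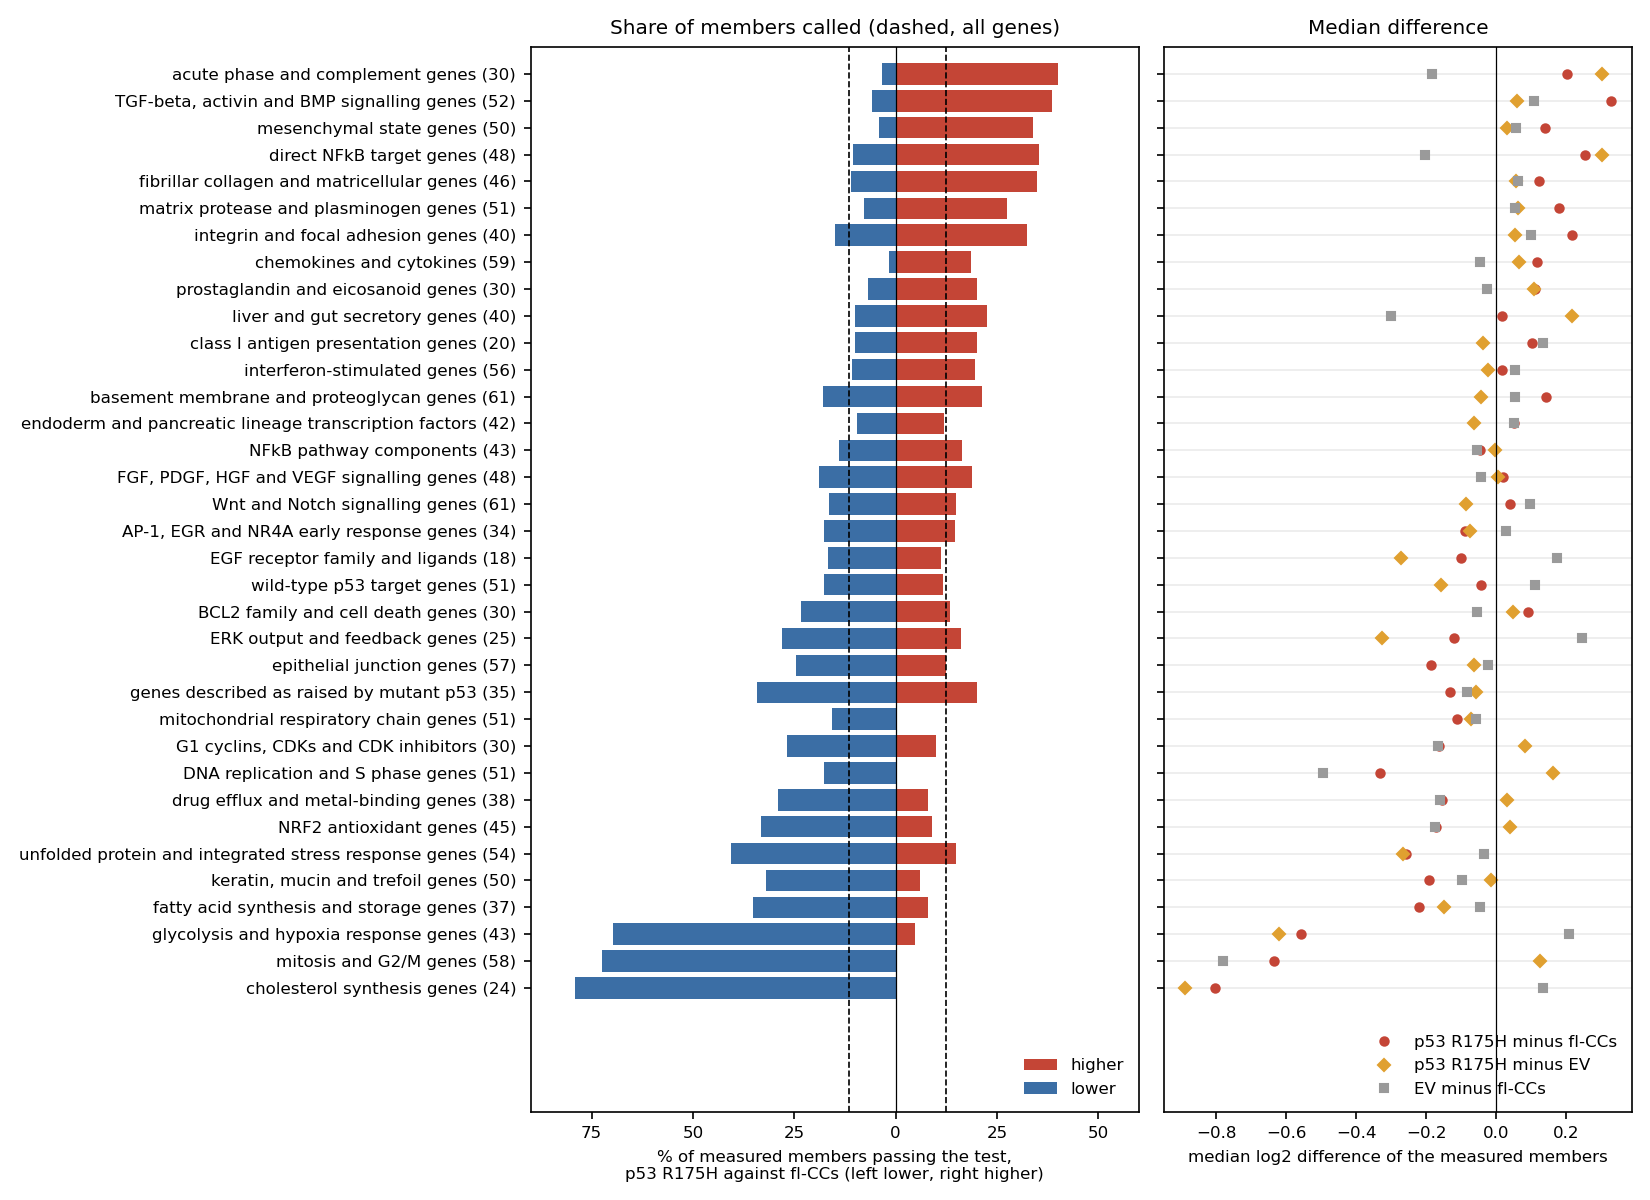
Left, the share of each list's measured genes (number in parentheses) that were higher (red, right) or lower (blue, left) in p53 R175H cells than in fl-CCs, in percent, with dashed lines at the 12.5% and 11.5% of all genes; right, the list's median log2 difference for p53 R175H minus fl-CCs, p53 R175H minus EV and EV minus fl-CCs. Cholesterol synthesis, glycolysis and hypoxia, and mitosis genes lie at the lower end, and for mitosis genes the EV minus fl-CCs median (−0.78) is below that of p53 R175H minus fl-CCs (−0.64).

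With levels under 5 set to 5 for ranking, the largest rise among all genes was that of Peg3, a paternally expressed zinc finger gene. It measured 5.59, 5.62 and 5.60 in fl-CCs, 2.63, 2.62 and 2.45 in EV cells and 9.75, 9.70 and 9.68 in p53 R175H cells. The difference from fl-CCs was 4.11 ± 0.13 on the log2 scale, or 17.2-fold (adjusted p = 2.8e-08), and EV cells went the other way. Brighter probe sets of Peg3 had the same order of groups and rose by 3.68 ± 0.29 and 3.17 ± 0.26, with EV means of 5.34 and 5.88. Usp29, a deubiquitinase gene of the same imprinted domain, rose by 2.91 ± 0.18, from 5.36 to 5.75 up to 8.42 to 8.53 (adjusted p = 1.44e-06). Nrk, a kinase gene known from placenta, was under 5 in fl-CCs on the probe set with the lowest adjusted p and 8.18 to 8.97 in p53 R175H cells, at least 3.52 higher. Its brightest probe set was above background in every group, at 6.38 to 7.0 in fl-CCs, 7.83 to 8.0 in EV and 10.39 to 10.76 in p53 R175H cells (log2 difference 3.77 ± 0.22). Sall1, a zinc finger factor of kidney and limb development, was under 5 in fl-CCs and EV arrays and 7.71 to 7.92 with p53 R175H, at least 2.79 higher.

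The same pattern of lowest in EV and highest in p53 R175H cells was seen for several large rises. Slc38a1, a glutamine transporter, measured 6.70, 6.20 and 6.31 in fl-CCs, 4.55 to 5.22 in EV and 9.27, 9.14 and 9.33 in p53 R175H cells (log2 difference 2.84 ± 0.17). Selp, which encodes the adhesion receptor P-selectin of platelets and endothelium, rose from 5.31 to 5.54 up to 7.66 to 8.44, with EV arrays under 5. Cybb, the catalytic subunit of the phagocyte NADPH oxidase, rose from 5.26 to 5.89 up to 8.17 to 8.31 with EV under 5, and its brighter probe sets had the same order with EV means of 5.60 and 5.71. The peptidase gene Cpq rose by 2.59 ± 0.13, again with every EV array under 5. Zfp503, a zinc finger repressor, rose by 2.89 ± 0.15 with EV under 5, but its other probe set rose by 1.7 ± 0.19 and had EV (6.03 to 6.71) overlapping fl-CCs (5.69 to 6.34). For other large rises EV cells lay between. Gpx8 measured 6.53, 6.67 and 6.03 in fl-CCs, 7.95 to 8.06 in EV and 9.33, 9.36 and 9.20 in p53 R175H cells, a 7.41-fold difference from fl-CCs. Tmeff1, a membrane protein with follistatin modules, rose by 3.07 ± 0.15 with EV at 8.36 to 8.60, and Erc2, a presynaptic scaffold protein, by 2.78 ± 0.22 with EV at 7.66 to 7.80. Repin1, a zinc finger gene, rose by 2.53 ± 0.11, of which EV cells had 1.90 ± 0.11.

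**Figure D3:**
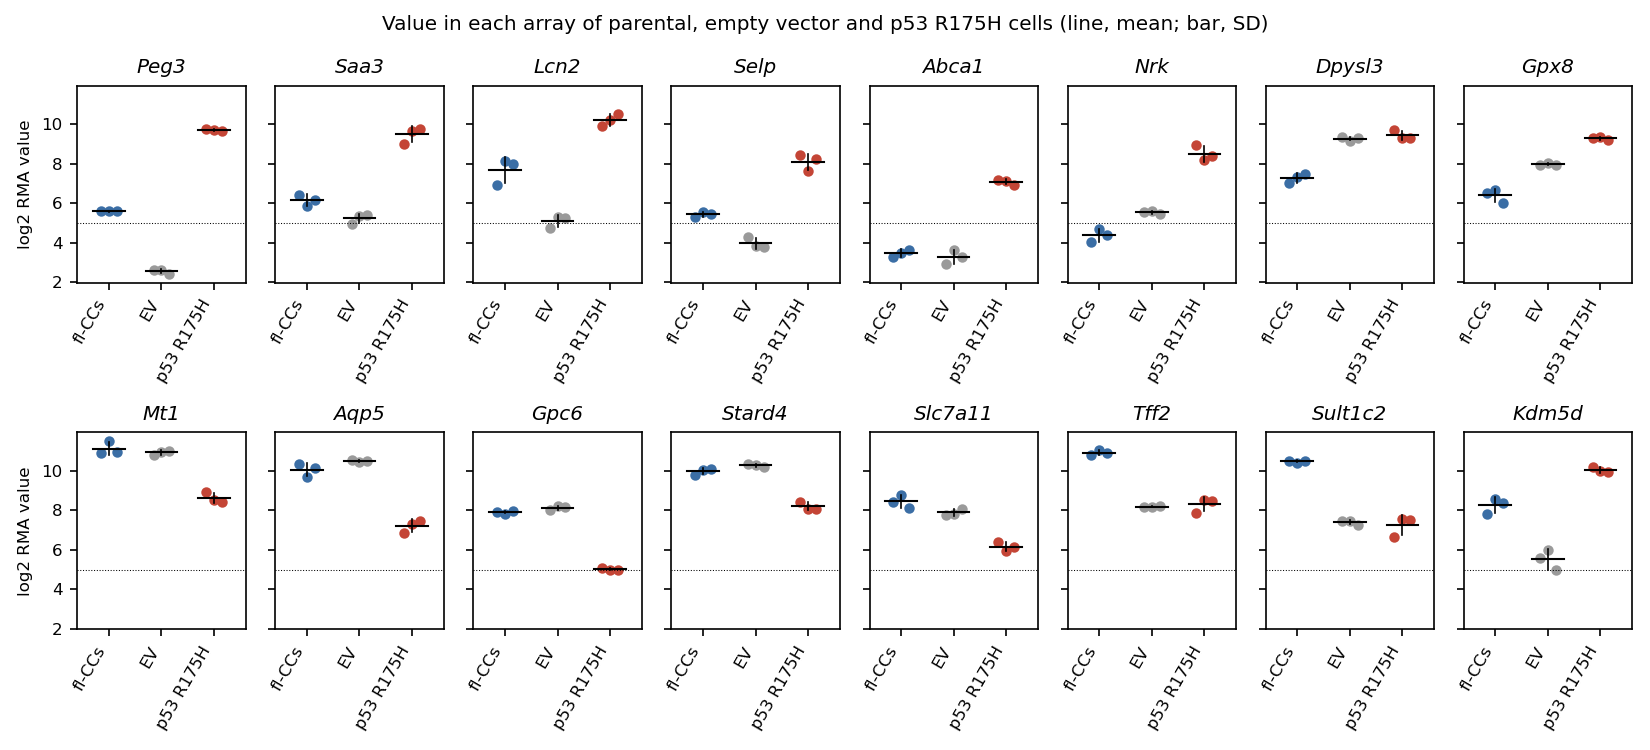
Log2 RMA value of 16 genes in each of the 3 arrays of fl-CCs (blue), EV (grey) and p53 R175H cells (red); horizontal lines are group means, vertical bars the SD, and the dotted line a log2 value of 5. Peg3, Lcn2 and Kdm5d are lowest in EV and highest in p53 R175H cells, Mt1, Aqp5 and Gpc6 are low in p53 R175H cells alone among the 3 groups, and Tff2 and Sult1c2 are low in EV and p53 R175H cells.

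Among the falls, many were present in p53 R175H cells and not in EV cells. Gpc6, a glypican that carries heparan sulfate on the cell surface, measured 7.91, 7.84 and 7.96 in fl-CCs, 8.0 to 8.21 in EV and 5.07, 5.0 and 5.0 in p53 R175H cells. It was 7.35-fold lower (log2 difference −2.88 ± 0.09, adjusted p = 2.8e-08). Aqp5, the water channel of secretory glands, fell from 9.70 to 10.37 to 6.87 to 7.49 (7.21-fold, adjusted p = 1.5e-06), and Aqp1, another water channel, fell by 2.38 ± 0.13. Bcat1, which starts the breakdown of branched-chain amino acids, fell by 2.52 ± 0.17, Zic2, a neural patterning factor, fell by 2.69 ± 0.19 and Epb41l4a, of the band 4.1 family, by 2.96 ± 0.21. Ppp1r1b, which encodes the phosphatase inhibitor DARPP-32, was 7.52 to 7.61 in fl-CCs, 7.50 to 7.54 in EV and under 5 in p53 R175H cells, at least 2.57 lower. Celf6, an RNA-binding protein gene, was at least 2.35 lower than in fl-CCs and at least 4.03 lower than in EV. In Depp1, an autophagy regulator induced by FOXO factors, EV cells stood between: it measured 10.30 to 10.80 in fl-CCs, 9.08 to 9.18 in EV and 7.49 to 7.74 in p53 R175H cells.

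Some large differences from fl-CCs were not called against EV. Sult1c2, a sulfotransferase, had the largest fall in the same ranking, 9.47-fold, from 10.43 to 10.52 in fl-CCs to 6.66, 7.58 and 7.50 in p53 R175H cells, and EV cells were at 7.28 to 7.46 (log2 difference from EV −0.15 ± 0.20, adjusted p = 0.689). Dmbt1, a mucosal scavenger receptor, fell by 2.71 ± 0.30, Rpp25, a subunit of RNase P, by 2.49 ± 0.30 and Atp2a3, an ER calcium pump, by 1.99 ± 0.18. Among the rises, Dpysl3, a cytoskeletal protein of growth cones, went from 7.03 to 7.51 up to 9.29 to 9.73 and was 9.18 to 9.36 in EV. Chsy3, which builds chondroitin sulfate, was at least 2.15 higher than in fl-CCs, where it was near background, and 6.29 to 6.72 in EV. The secreted matrix protein gene Ccdc80 and the glypican Gpc2 rose by 2.0 ± 0.25 and 1.98 ± 0.22. A p above the threshold does not show that both transfected lines had the same level. The 95% interval of the log2 difference from EV was −0.58 to 0.28 for Sult1c2 and −0.14 to 0.47 for Dpysl3. It left out zero for Chsy3 (0.06 to 1.16), Rpp25 (−1.34 to −0.01) and Atp2a3 (−0.81 to −0.03), and the p53 R175H arrays of Chsy3, Ccdc80 and Gpc2 did not overlap those of EV.

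Of 50 keratin, mucin and trefoil genes, 16 fell and 3 rose (median −0.19). Tff2, a trefoil peptide of gastric mucus, measured 10.80, 11.04 and 10.89 in fl-CCs, 8.20, 8.19 and 8.20 in EV and 7.89, 8.52 and 8.50 in p53 R175H cells (6.09-fold lower, adjusted p = 8.45e-07), and the EV and p53 R175H arrays overlapped. Tff1 fell by 1.98 ± 0.12, to 9.47 to 9.99 against 9.35 to 9.40 in EV, and the gel-forming mucin Muc5ac by 1.88 ± 0.14, to 5.53 to 6.0 against 5.56 to 5.95. Muc5b, another gel-forming mucin, fell further in p53 R175H cells (by 2.0 ± 0.17) than in EV (by 1.11 ± 0.17), and the difference between them passed the test (adjusted p = 0.00316). Between EV and fl-CCs 14 of the list fell and 2 rose, and against EV 6 were higher and 7 lower.

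Some duct markers were lower in p53 R175H cells than in fl-CCs. Of 12 markers of duct and pancreatic tumor cells, 5 fell, 0 rose and 7 were not called. Their summed log2 level was 15.68 to 15.75 in fl-CCs, 15.62 to 15.68 in EV and 15.40 to 15.45 in p53 R175H cells. Against EV, 3 were higher and 5 lower, and between EV and fl-CCs 0 were higher and 4 lower. Cftr, the chloride channel of duct cells, measured 8.45, 9.50 and 9.21 in fl-CCs, 7.62 to 7.96 in EV and 7.33, 6.62 and 6.98 in p53 R175H cells, 4.22-fold lower (adjusted p = 0.000162). Krt7 fell by 0.94 ± 0.10 and Krt19 by 0.43 ± 0.07, neither of which was lower in EV. Tspan8, a tetraspanin, fell by 1.05 ± 0.12, but its probe set with the highest mean did not pass the test (log2 difference −0.07, adjusted p = 0.648). Muc1 fell by 0.45 ± 0.12 (adjusted p = 0.0296), a call that remained in the fit without fl-CCs replicate 1 and was lost in the fits without each of the other 5 arrays (adjusted p up to 0.111). The epithelial factor Elf3 fell by 1.39 ± 0.17.

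Of 57 epithelial junction genes, 14 fell (24.6%, beside 11.5% of all genes) and 7 rose (12.3%, beside 12.5%), with a median of −0.19, and 9 fell without fl-CCs replicate 3. The desmosomal cadherin Dsg2 measured 8.71, 8.73 and 8.67 in fl-CCs, 8.67 to 8.79 in EV and 6.94, 6.95 and 6.89 in p53 R175H cells, a fall of 1.78 ± 0.13 (adjusted p = 6.72e-06). Dsc2, its desmosomal partner, fell by 1.38 ± 0.11 with EV again at the fl-CCs level (8.29 to 8.44). Cdh17, a cadherin of intestine, rose by 0.95 ± 0.10, and Spint1, which inhibits epithelial surface proteases, by 0.81 ± 0.14. Ehf, an epithelial ETS factor, rose from 5.75 to 6.23 up to 7.93 to 8.68 (log2 difference 2.47 ± 0.18), with EV under 5 on this probe set and 5.47 to 5.88 on the second probe set above background. Among 42 endoderm and pancreatic lineage factors, 5 rose (11.9%) and 4 fell (9.5%), no more than the 12.5% and 11.5% of all genes. The rises numbered 1 without fl-CCs replicate 1 or p53 R175H replicate 3, 2 without p53 R175H replicate 1 and 3 without p53 R175H replicate 2. Prox1, a homeobox factor of liver and pancreas progenitors, rose by 2.50 ± 0.25, from 4.38, 5.08 and 5.41 to 7.70, 7.40 and 7.29.

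Of 40 liver and gut secretory genes, 9 rose and 4 fell (22.5% and 10.0%, beside 12.5% and 11.5% of all genes), 27 were not called and the median was 0.02. Genes of plasma proteins made by liver were found on both sides. Hpx, which encodes the heme carrier hemopexin, rose from 6.10 to 6.70 up to 7.68 to 8.01 (log2 difference 1.53 ± 0.24), and Alb, which encodes albumin, from 5.39 to 5.91 up to 6.66 to 7.33. Ttr, the thyroxine carrier transthyretin, fell by 1.63 ± 0.18, from 11.44 to 11.55 to 9.35 to 10.19, which overlapped EV at 10.05 to 10.39. In EV 18 of the list were lower than in fl-CCs and 0 higher, and in p53 R175H cells 16 were higher than in EV and 0 lower.

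Acute phase and NFκB target genes rose. Of 30 acute phase and complement genes, 12 rose and 1 fell (median 0.20). Saa3, an acute phase apolipoprotein of inflamed tissue, measured 6.45, 5.87 and 6.18 in fl-CCs, 4.98, 5.35 and 5.39 in EV and 9.03, 9.69 and 9.78 in p53 R175H cells, 10.1-fold above fl-CCs (adjusted p = 1.88e-06). Lcn2, the iron-siderophore binding lipocalin, measured 6.93, 8.15 and 8.0 in fl-CCs and 9.92, 10.20 and 10.52 in p53 R175H cells, 5.72-fold higher (adjusted p = 0.000105), and was 4.75 to 5.32 in EV. C1s1, a protease of the first complement component, rose from 7.84 to 8.23 up to 9.70 to 9.75 (adjusted p = 2.19e-06), with all EV arrays under 5. For these genes fl-CCs lay between EV and p53 R175H cells and no pair of groups overlapped. Complement factor B (Cfb) rose by 0.70 ± 0.13, and factor I (Cfi), which limits complement, fell by 0.73 ± 0.15. In EV 10 of the 30 were lower than in fl-CCs and 1 higher.

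Of 48 direct NFκB targets, 17 rose and 5 fell (median 0.25), against 12.5% and 11.5% of all genes. Saa3 and Lcn2 are members of both lists. Against EV 23 were higher and 5 lower (median 0.30), and between EV and fl-CCs 5 were higher and 14 lower (median −0.20). The 5 falls became 2 without fl-CCs replicate 2, p53 R175H replicate 1 or p53 R175H replicate 3, and 1 without fl-CCs replicate 3. Csf1, the macrophage growth factor, measured 6.98, 6.76 and 6.80 in fl-CCs, 6.41 to 6.70 in EV and 8.23, 8.62 and 8.46 in p53 R175H cells, 3.02-fold higher (adjusted p = 1.03e-05). Ptgs2, the inducible prostaglandin synthase, rose by 1.14 ± 0.23 and Cxcl1, which attracts neutrophils through Cxcr2, by 0.47 ± 0.10 (adjusted p = 0.00712). The log2 level of Cxcl1 was 9.72 to 9.98 in fl-CCs, 8.71 to 8.92 in EV and 10.21 to 10.35 in p53 R175H cells. Nfkbia, the feedback inhibitor IκBα, measured 10.49, 10.71 and 10.56 in fl-CCs and 10.99, 10.94 and 10.88 in p53 R175H cells, a difference of 0.35 ± 0.09 (adjusted p = 0.019). That call was lost without fl-CCs replicates 1 or 3 and without p53 R175H replicates 1 or 2 (difference 0.30 to 0.41, adjusted p up to 0.0685). Gadd45b, a stress-induced NFκB target, fell by 0.53 ± 0.11.

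Among 59 chemokines and cytokines (median 0.12), 11 rose (18.6%, beside 12.5% of all genes) and 1 fell (1.7%, beside 11.5%). Ccl9, a chemokine for myeloid cells in mice, rose by 2.23 ± 0.24, from 6.08, 7.17 and 6.83 in fl-CCs to 9.34, 8.63 and 8.80, with EV between at 7.60 to 7.96. Ccl17, which attracts T cells through Ccr4, rose by 1.69 ± 0.16 and was not raised in EV (7.54 to 7.93 against 7.50 to 7.82 in fl-CCs). The cytokine Mif fell by 0.53 ± 0.08. Cxcl12 was under 5 in every fl-CCs array and 4.37, 4.90 and 5.08 in p53 R175H cells, so no size is given. Tnfsf11, which encodes RANKL, was under 5 in all arrays of both groups. Tnfrsf9, a TNF receptor of activated lymphocytes, measured 5.65, 6.78 and 6.50 in fl-CCs and 6.56, 6.69 and 6.62 in p53 R175H cells, which overlap (difference 0.32, 95% interval −0.16 to 0.79, adjusted p = 0.408). Of 43 NFκB pathway components, 7 rose and 6 fell. The 7 became 4 without p53 R175H replicate 1, and the 6 became 3 without fl-CCs replicate 3 or p53 R175H replicate 1.

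Most leukocyte markers were near background beside these rises. Of 19 leukocyte and macrophage markers, 14 were near background in fl-CCs and 12 in p53 R175H cells (11 and 10 on every probe set), and the summed log2 level was 10.40 to 10.44 and 10.43 to 10.64. The calprotectin subunits S100a8 and S100a9, also made by inflamed epithelium, were at least 0.88 and 0.85 ± 0.19 higher. Laptm5 passed the test (adjusted p = 0.0393), but lay near background in fl-CCs and lost the call without any 1 of the fl-CCs replicates 1, 2 and 3 and the p53 R175H replicates 2 and 3 (adjusted p up to 0.141). Of 56 interferon-stimulated genes, 11 rose (19.6%, beside 12.5% of all genes) and 6 fell (10.7%, beside 11.5%), with a median of 0.02. Compared with EV, 9 were higher and 14 lower (median −0.02), and EV itself had 10 higher and 3 lower than fl-CCs. The genes named next are given against fl-CCs. Irf9, the DNA-binding partner of STAT proteins, rose by 1.03 ± 0.21 and the RNA sensor Ifih1 by 0.87 ± 0.15, and the exonuclease Isg20 fell by 0.67 ± 0.08, Lgals3bp by 0.63 ± 0.09 and Ifitm3, which blocks virus entry, by 0.53 ± 0.12.

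**Figure D4:**
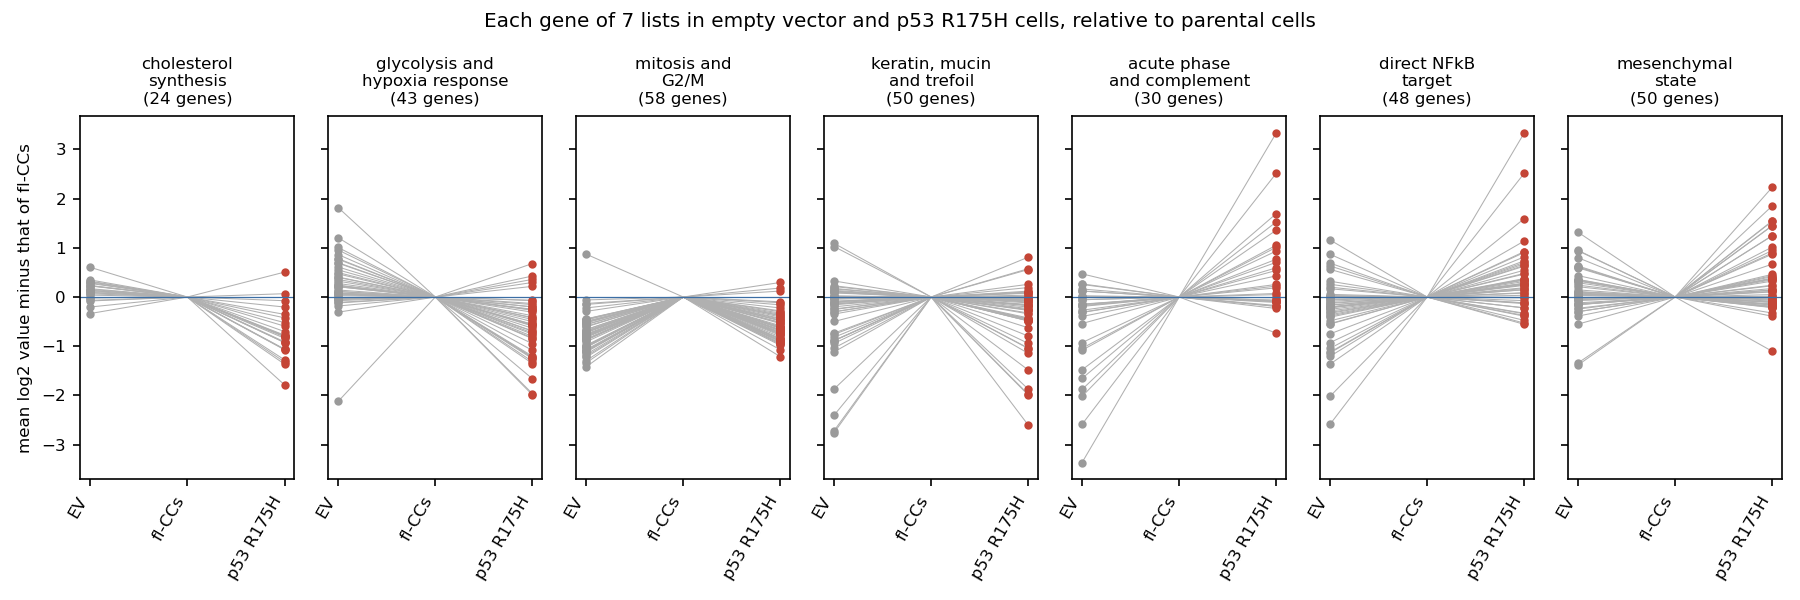
Mean log2 value of each gene in EV (grey) and p53 R175H cells (red) minus its mean in fl-CCs (the zero line), for 7 lists with the number of measured genes in each; each grey line joins the values of 1 gene. Cholesterol synthesis genes lie mostly below zero with p53 R175H and near zero with EV, mitosis genes lie mostly below zero in both lines, and of 30 acute phase genes 12 were called higher and 1 lower with p53 R175H, and 1 higher and 10 lower with EV.

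More matrix and mesenchymal genes rose than fell against fl-CCs, several of them from low levels. Against EV the balance was smaller for the mesenchymal list as well as for the matrix lists. Of 50 mesenchymal state genes, 17 rose and 2 fell (median 0.14). Compared with EV, 11 were higher and 2 lower (median 0.03), and between EV and fl-CCs 6 were higher and 2 lower. Twist1, a transcription factor of epithelial-mesenchymal transition, measured 5.94, 6.20 and 6.16 in fl-CCs and 8.23, 8.35 and 8.41 in p53 R175H cells, 4.70-fold higher (adjusted p = 5.11e-07), and was under 5 in every EV array. Zeb2, another such factor, rose by 1.54 ± 0.15, from 6.39 to 6.86 up to 7.96 to 8.51, with EV between at 7.47 to 7.74. Tpm2, a tropomyosin of stress fibers, fell by 1.10 ± 0.08 and S100a4, a motility-linked calcium binder, by 0.33 ± 0.07. Cdh1, the main epithelial cadherin, did not pass the test (difference 0.23, 95% interval 0.04 to 0.43, adjusted p = 0.105).

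Of 46 fibrillar collagen and matricellular genes (median 0.12), 16 rose (34.8%, beside 12.5% of all genes) and 5 fell (10.9%, beside 11.5%). Relative to EV, 10 were higher and 5 lower (median 0.06), and EV itself had 10 higher and 2 lower than fl-CCs. Fibronectin (Fn1) measured 10.19, 11.03 and 11.23 in fl-CCs and 12.54, 12.15 and 12.41 in p53 R175H cells (log2 difference 1.55 ± 0.21, adjusted p = 0.000529), and EV arrays, at 12.07 to 12.23, overlapped those of p53 R175H cells. Col12a1, a collagen associated with fibrils, was 2.67 to 3.15 in fl-CCs, 2.84 to 2.96 in EV and 6.24, 5.98 and 5.76 in p53 R175H cells, at least 0.99 higher. A second probe set of it rose by 1.59 ± 0.23. Thbs1, which activates latent TGF-β, rose by 1.56 ± 0.22. Of 16 fibroblast markers, 12 were near background in each group and 2 rose, with summed log2 levels of 8.19 to 8.49 in fl-CCs, 8.43 to 8.52 in EV and 8.67 to 8.74 in p53 R175H cells. Pdgfra, the PDGF receptor of fibroblasts, rose by 1.25 ± 0.16 to 6.16 to 6.23, with EV at 5.75 to 6.0. Col1a1 measured 5.09, 5.26 and 6.42 against 6.64, 6.43 and 6.38, which overlap. It passed the test (adjusted p = 0.0376) but not without fl-CCs replicates 1 or 2 or p53 R175H replicates 1, 2 or 3 (adjusted p up to 0.141).

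Of 51 matrix protease and plasminogen genes (median 0.18), 14 rose (27.5%, beside 12.5% of all genes) and 4 fell (7.8%, beside 11.5%). Relative to EV, 11 were higher and 9 lower (median 0.06), and EV itself had 9 higher and 7 lower than fl-CCs. Mmp10, a stromelysin, measured 6.28, 7.31 and 7.50 in fl-CCs, 5.31 to 5.96 in EV and 10.00, 8.81 and 8.88 in p53 R175H cells (log2 difference 2.20 ± 0.37, adjusted p = 0.00198). Mmp13, a collagenase, measured 6.22, 7.88 and 7.42 against 9.78, 8.79 and 8.65 (difference 1.90 ± 0.44, adjusted p = 0.012), and lost the call without p53 R175H replicate 1 (difference 1.55, adjusted p = 0.0535). The membrane collagenase Mmp14 rose by 1.21 ± 0.11 and Reck, a membrane inhibitor of metalloproteinases, was at least 0.30 higher. The serine protease Hpn fell by 1.37 ± 0.15 and the plasminogen activator Plat by 1.06 ± 0.12. Plat in EV cells (5.45 to 5.64) overlapped the level with p53 R175H (5.15 to 5.49).

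Proteoglycan genes split in direction. Of 61 basement membrane and proteoglycan genes, 13 rose (21.3%, beside 12.5% of all genes) and 11 fell (18.0%, beside 11.5%), with a median of 0.14. The falls numbered 6 without fl-CCs replicate 3 and 7 without p53 R175H replicate 1. Sdc2, a heparan sulfate proteoglycan of mesenchymal cells, measured 7.46, 7.73 and 7.62 in fl-CCs, 5.09, 4.98 and 5.34 in EV and 10.06, 10.07 and 10.11 in p53 R175H cells, 5.56-fold above fl-CCs (adjusted p = 1.49e-07). Its order of groups was that of Peg3 and Lcn2, and opposite in direction to the fall of Gpc6. Vcan, the large proteoglycan versican, rose by 1.91 ± 0.21 and was at 7.03 to 7.05 in EV against 6.39 to 6.97, and Sulf1, which trims sulfate from heparan sulfate, fell by 1.89 ± 0.16 with EV nearly as low (7.90 to 8.42 against 7.55 to 8.13). Hspg2, which encodes the basement membrane proteoglycan perlecan, measured 8.26, 8.39 and 8.42 in fl-CCs, 8.25, 8.37 and 8.45 in EV and 8.66, 8.05 and 8.44 in p53 R175H cells. These ranges overlap, and the difference was 0.03 (95% interval −0.27 to 0.32, adjusted p = 0.937). Of 40 integrin and focal adhesion genes, 13 rose and 6 fell (median 0.22), and the falls were 3 without fl-CCs replicate 2. Relative to EV, 11 were higher and 9 lower (median 0.05), and EV itself had 8 higher and 3 lower than fl-CCs.

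Genes of TGF-β, activin and BMP signalling rose more often than genes in general, with 20 of 52 higher and 3 lower (median 0.33). The 3 falls became 1 in the fits without fl-CCs replicate 2 or 3 and without any 1 of the p53 R175H replicates. Inhba, the subunit of activin A, measured 7.55, 8.74 and 8.84 in fl-CCs, 8.94 to 9.25 in EV and 10.44, 9.95 and 10.03 in p53 R175H cells (log2 difference 1.76 ± 0.28, adjusted p = 0.00133). Replicate 1 of fl-CCs was the lowest array of its group for this gene. The BMP target Id3 rose by 1.20 ± 0.17, to 9.50 to 9.79 against 6.66 to 7.33 in EV, and the latent TGF-β binding protein Ltbp2 was at least 0.70 higher. Tgfb2, a ligand, fell by 0.54 ± 0.11. Against EV, 15 of the list were higher and 8 lower (median 0.06), and between EV and fl-CCs 11 were higher and 3 lower (median 0.11).

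Growth factor genes changed at the level of single receptors and binding proteins. Of 48 FGF, PDGF, HGF and VEGF signalling genes, 9 rose and 9 fell (18.8% each, beside 12.5% and 11.5% of all genes, median 0.02). Fgfbp1, which releases FGFs from the matrix, fell by 2.13 ± 0.14, from 8.08 to 8.21 to 5.76 to 6.29, and the VEGF receptor Flt1 by 1.21 ± 0.12. Flt1 is also 1 of 12 endothelial markers, of which 4 fell, 9 were near background in both groups, and the summed log2 level was 9.15 to 9.21 in fl-CCs and 8.54 to 8.63 in p53 R175H cells. Igfbp3 and Igfbp7, which bind insulin-like growth factors, rose by 1.89 ± 0.17 and 1.63 ± 0.11, and both were intermediate in EV. Of 18 EGF receptor family genes, 2 rose (11.1%) and 3 fell (16.7%). Erbb3, the receptor for neuregulins, fell from 9.78 to 10.19 to 8.41 to 8.71 (log2 difference −1.45 ± 0.14), Nrg4, a ligand of the related ErbB4 receptor, fell by 1.17 ± 0.20 and Nrg1, a ligand of ErbB3, rose by 0.95 ± 0.21. Of 61 Wnt and Notch genes, 9 rose (14.8%) and 10 fell (16.4%), near the shares of all genes. The Wnt receptor Fzd8 rose by 2.26 ± 0.19, to 7.38 to 7.61, while EV (4.89 to 5.28) stayed in the range of fl-CCs (4.87 to 5.43), and the Notch ligand Jag2 fell by 1.34 ± 0.11.

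Targets of wild-type p53 did not move in a single direction. Of 51 such genes, 6 rose and 9 fell (median −0.04), or 11.8% and 17.6% beside the 12.5% and 11.5% of all genes. Compared with EV, 7 of them were higher and 15 lower (median −0.16), beside 13.5% and 13.0% of all genes. Between EV and fl-CCs 10 were higher and 6 lower (median 0.11). Cdkn1a, which encodes the cell cycle inhibitor p21, measured 7.06, 8.51 and 8.10 in fl-CCs and 7.56, 7.09 and 7.10 in p53 R175H cells. The groups overlap through replicate 1 of fl-CCs, and the difference of −0.64 (95% interval −1.26 to −0.02) did not pass the test (adjusted p = 0.169). Without that array it was −1.05 and passed (adjusted p = 0.00339). Cdkn1a was 8.23 to 8.57 in EV cells, and its difference from EV passed the test (−1.18 ± 0.28, adjusted p = 0.011). Mdm2, the ubiquitin ligase of p53, was 9.10 to 9.32 and 8.93 to 9.12, which overlap (difference −0.21, 95% interval −0.41 to −0.01, adjusted p = 0.173). Its difference from EV did not pass the test either (−0.20, adjusted p = 0.164). Btg2, an antiproliferative target, fell from 8.53 to 8.83 to 7.07 to 7.43 (log2 difference −1.42 ± 0.12, adjusted p = 1.38e-05), and Perp, a desmosome-associated target, by 1.02 ± 0.08. Phlda3, which restrains AKT, fell by 0.82 ± 0.12 while it was higher in EV (9.30 to 9.47) than in fl-CCs (8.57 to 8.69). Fas, the death receptor, rose from 4.64, 4.99 and 5.21 to 6.53, 6.66 and 7.04 (1.80 ± 0.17), and was under 5 in EV.

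Of 35 genes that the literature on other cells describes as raised by mutant p53, 7 rose (20.0%) and 12 fell (34.3%), with a median of −0.13. These shares stand beside 12.5% and 11.5% of all genes. Compared with EV, 5 were higher and 9 lower, and between EV and fl-CCs 5 were higher and 8 lower. The members that fell include genes also on the cholesterol synthesis and mitosis lists, such as Lss, Sqle and Cdc25c, a phosphatase for mitotic entry that fell by 1.07 ± 0.20. Cdc25c was also lower in EV than in fl-CCs (by 0.87 ± 0.20) and did not pass the test against EV (adjusted p = 0.545). Lss and Sqle were lower than in EV as well, by 1.67 and 1.21. Bcl2, which blocks cell death at mitochondria, measured 9.28, 9.15 and 9.40 in fl-CCs, 9.85 to 9.97 in EV and 9.63, 9.41 and 9.56 in p53 R175H cells. Its difference of 0.25 (95% interval 0.04 to 0.47) did not pass the test (adjusted p = 0.108). Of 30 BCL2 family and cell death genes, 4 rose (13.3%) and 7 fell (23.3%).

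The remaining gene lists had calls in both directions, and their shares stand beside the 12.5% of all genes that rose and the 11.5% that fell. Of 30 G1 cyclins, CDKs and their inhibitors, 3 rose (10.0%) and 8 fell (26.7%), and the falls were 4 without p53 R175H replicate 2 and 5 without p53 R175H replicate 3. Of 25 ERK output and feedback genes, 4 rose (16.0%) and 7 fell (28.0%). Leaving out fl-CCs replicate 1 or p53 R175H replicate 1 gave 2 rises, and leaving out fl-CCs replicate 3 or p53 R175H replicate 3 gave 2 rises and 3 falls. The 7 falls were 4 without fl-CCs replicate 2 or p53 R175H replicate 2. Against EV, 3 members of this list were higher and 13 lower (median −0.325), and between EV and fl-CCs 9 were higher and 0 lower. Of 34 AP-1, EGR and NR4A genes, 5 rose (14.7%) and 6 fell (17.6%). There were 2 rises without fl-CCs replicate 1, p53 R175H replicate 1 or p53 R175H replicate 2 and 3 without fl-CCs replicate 3. Relative to EV, 1 was higher and 12 lower (median −0.07), and EV itself had 4 higher and 3 lower than fl-CCs. Of 20 class I antigen presentation genes, 4 rose (20.0%) and 2 fell (10.0%), and of 30 prostaglandin genes, 6 rose (20.0%) and 2 fell (6.7%). Among markers of other cells, 2 of 8 nerve and glial genes fell, with a summed log2 level of 9.81 to 9.96 in fl-CCs and 9.31 to 9.52 in p53 R175H cells. They were Snap25, a synaptic vesicle fusion protein, which fell by 2.14 ± 0.21 on its brighter probe set, from 7.11 to 7.37 in fl-CCs to 4.50 to 5.52 in p53 R175H cells, and Map2, a microtubule protein, which fell by 1.11 ± 0.10. Of 9 acinar markers 2 rose and 1 fell. The elastase genes Cela1 (0.32 ± 0.09) and Cela3b (−0.42 ± 0.12) each lost the call in 5 or more of the 6 fits without 1 array: Cela3b in all of them and Cela1 in all but the fit without p53 R175H replicate 2. None of 10 endocrine markers passed the test.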

How the data were processed

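RNA of 12 cultures was measured on Affymetrix mouse arrays. The submitters' processing notes name RMA, and the values the authors deposited are on the log2 scale, with a median of 5.59 in every array and sorted values that differed by at most 0.018. No further normalization was applied. Of 45101 probe sets, 64 controls were left out, and limma 3.58.1 in R 4.3.3 (lmFit, eBayes) was fitted to the group means of all 12 arrays with Benjamini-Hochberg adjustment over 45037 probe sets. The methods' threshold of 0.05 was used with no fold limit. A gene was read from whichever of its probe sets had the lowest adjusted p for p53 R175H against fl-CCs, as in the methods, which favors calls in that comparison. The same probe set was used for the comparisons with EV. Among 9010 genes with several probe sets, 18 had calls in both directions. Symbols came from the platform annotation (34945 probe sets with 1 symbol, 932 with several, not named, and 9160 unnamed here). Arrays give no read depth, and 3 arrays a group limit the precision.

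Named genes were the 15 largest rises and 15 largest falls that did not overlap, the 10 and 10 also called against EV in the same direction, the 5 and 5 not called against EV, up to 3 and 3 of each list, called markers, and genes the study names, together with Cdkn1a and Mdm2. Not all of them are printed, and 1 item of the genotype is not reported here. Asns, Cdh1, Cfb, Chac1, Col12a1, Cyp51, Dcn, Hmgcs1, Id3, Insig1, Ltbp2, Mki67, Mt3, Muc5ac, Pecam1, Plagl1, Ptprc, Reck, Slc16a3, Slc2a1, Srebf2, Tfrc, Trib3 and Zeb2 were chosen after their values were seen. The 35 gene lists and 9 marker lists (1527 genes, 1426 measured) were written from general knowledge, and members and lists were chosen with earlier results of these data known. The fit was tested on simulated arrays of this comparison over 45037 probe sets, where it recovered 14 of 67 changes of 0.5, 55 of 67 of 1 and 66 of 66 of 2 on the log2 scale, with 10 of 145 calls false. Only these 67, 67 and 66 probe sets were changed, whereas 6762 were called in the real arrays. The Benjamini-Hochberg adjustment depends on that share, so these recovery rates do not carry over to the real comparison. Promoters were searched with Python 3.11.15. Alternatives were the arrays fitted, leaving out each array, array weights, an unmoderated model, an intensity trend, a filter on dim probe sets, further normalization, a fold limit, the probe set of a gene and the replicate number as a block. Leaving out each array for the list counts was added after seeing the data.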

Additional observations from a re-analysis of the deposited data

How the results depend on the processing

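Under every alternative but the fold limit, the numbers of genes and probe sets called stayed within 1.5 times those first given. With a log2 difference of at least 1 required, 424 genes were higher and 239 lower in p53 R175H cells than in fl-CCs. In probe sets the same limit left 678 and 378 (of 3499 and 3263), 822 and 730 against EV (of 4586 and 4577), and 552 and 497 for EV against fl-CCs (of 2905 and 2547). Leaving out 1 array gave 1700 to 1861 genes higher and 1429 to 1644 lower. Replicate numbers did not pair the samples, since deviations of p53 R175H and fl-CCs arrays of the same number correlated at −0.09, −0.002 and −0.024. With the replicate number as a block, 2044 genes were higher and 1841 lower (probe sets 3112 and 2863), and Laptm5 lost its call (adjusted p = 0.0614). For 19 of 179 genes, a call or a direction changed under at least 1 alternative, though the filter on dim probe sets kept 170 of them and the brightest probe set was another one for 48. With the probe set of highest mean, the log2 difference of Bcl2 was −0.057 and that of Laptm5 −0.126. That of Hspg2 was −0.037 with array weights and ran from −0.113 to 0.19 when 1 array was left out (−0.024 without fl-CCs replicate 1, −0.113 and −0.001 without p53 R175H replicates 1 and 3). That of Tnfrsf9 ran from −0.017 (without fl-CCs replicate 1) to 0.552. The cause of these changes was not tested. Of list counts, 558 of 630 stayed within 1.5 times. Differences under 0.5 on the log2 scale are at the edge of what 3 arrays detect, and genes near background have no reliable size.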

Other observations

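Because Peg3 led the rises and its neighbor Usp29 was among the 15 largest, further imprinted genes, which are expressed from a single parental allele, were listed after these values had been seen. Of 47 measured, 6 rose and 5 fell against fl-CCs (median 0.00), beside 12.5% and 11.5% of all genes. Plagl1, an imprinted zinc finger gene of growth control, measured 8.75, 9.73 and 9.81 in fl-CCs, 9.89, 10.10 and 9.98 in EV and 7.57, 7.03 and 7.68 in p53 R175H cells. It fell by 2.0 ± 0.32 on the log2 scale (adjusted p = 0.00137), and its p53 R175H arrays overlapped neither other group.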
